A study of Mus musculus with 9 samples.

Results

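The 10 genes described here were the 4 Notch receptors (*Notch1*, *Notch2*, *Notch3* and *Notch4*), the 2 Jagged ligands (*Jag1* and *Jag2*) and 4 target genes of the pathway (*Hes1*, *Hey1*, *Hey2* and *Heyl*). They were taken by name from 21951 protein-coding genes of the GENCODE M21 annotation, and every peak in the gene body plus 20 kb on each side was collected. Notch receptors sit in the membrane of the receiving cell and are switched on by Jagged or Delta ligands of a neighboring cell. Cleavage by ADAM proteases and then by γ-secretase frees the intracellular part of the receptor, which joins the DNA-binding protein RBPJ and a Mastermind coactivator in the nucleus and turns on HES and HEY genes. In muscle of vessel walls, the best studied case, *Notch3* and *Jag1* are known for their part in smooth muscle maturation.

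The data were peak lists from ChIC-Seq, an assay in which micrococcal nuclease, tethered to an antibody through protein A, cuts fixed chromatin beside the antibody's target and the freed DNA is sequenced. One antibody was against PBRM1 (BAF180), a subunit particular to PBAF among SWI/SNF remodelers, and the other was against BRG1, an ATPase of SWI/SNF complexes. Both groups held 3 libraries of primary muscle cells (genotype WT) from the oviducts of mice mated to a stud male and taken on D2 of pregnancy, aged 8 to 12 weeks per the labels, with 50000 cells per library. The cells came from whole digested oviduct passed through a filter and were kept 6 h in culture, so no sort had removed other cell types; the strain and the number of mice behind each library were not given in the sources used here, and p-values measure only the spread between these libraries. Another group of 3 IgG samples was not analysed here.

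Depth was 18126049 to 23992352 fragments in PBRM1 libraries and 14284532 to 15897724 in BRG1 libraries, with 31970 to 38147 and 35220 to 39467 peaks. Values are per-million pileups: the number of fragments over the summit of a peak, divided by all fragments of that library and multiplied by 1000000. A list without a peak gives no value for that gene, which is not a value of 0. Peaks were called without a control library, so cutting of open chromatin regardless of antibody could be called too. As a check of the label, a peak within 2 kb of a transcript start was in all 6 lists for 3 of 8 smooth muscle markers (*Acta2*, *Tagln* and *Smtn*) and in no list for 1 (*Cnn1*), against 41.5% and 34.9% of all protein-coding genes. The same was in all 6 lists for 0 of 7 epithelial, 1 of 5 endothelial (*Tek*), 0 of 4 leukocyte and 0 of 3 fibroblast markers. Markers with a peak in any list numbered 3 epithelial, 3 endothelial, 0 leukocyte and 3 fibroblast genes, beside 14300 of all 21951 protein-coding genes. In cells taken in bulk, fewer cells with a bound site and less signal per cell cannot be told apart. A peak is not expression, and the part of other cell types in the values below was not tested.

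Shown first are sequences upstream of the starts of *Notch1*, *Notch2*, *Jag1* and *Hey2*. These members had a peak in 5 or 6 lists at the coding start next to the sequence. For *Notch1* that was the inner of 2 coding starts. The RefSeq promoter table on GRCm38 held 7 of the 10 genes, and the stretch shown ends before the first base that GENCODE M21 places in an exon. All are written 5′ to 3′ on the strand of the gene. They lie at chr2:26503825-26504072 on the minus strand for *Notch1*, chr3:98013288-98013526 on the plus strand for *Notch2*, chr2:137116645-137116770 on the minus strand for *Jag1* and chr10:30842802-30843033 on the minus strand for *Hey2*. Capitals mark matches to motifs named after the sequences.
Notch1 promoter: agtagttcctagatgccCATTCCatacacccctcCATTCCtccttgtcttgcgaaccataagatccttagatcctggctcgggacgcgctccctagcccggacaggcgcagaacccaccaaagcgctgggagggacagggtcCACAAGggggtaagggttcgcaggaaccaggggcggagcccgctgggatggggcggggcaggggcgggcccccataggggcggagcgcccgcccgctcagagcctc
Notch2 promoter: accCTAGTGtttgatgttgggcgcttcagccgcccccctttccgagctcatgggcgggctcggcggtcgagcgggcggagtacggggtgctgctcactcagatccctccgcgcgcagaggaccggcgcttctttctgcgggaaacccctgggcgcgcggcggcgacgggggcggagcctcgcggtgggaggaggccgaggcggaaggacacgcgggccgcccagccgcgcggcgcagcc
Jag1 promoter: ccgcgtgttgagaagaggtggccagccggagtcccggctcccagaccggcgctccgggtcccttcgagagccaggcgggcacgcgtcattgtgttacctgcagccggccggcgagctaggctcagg
Hey2 promoter: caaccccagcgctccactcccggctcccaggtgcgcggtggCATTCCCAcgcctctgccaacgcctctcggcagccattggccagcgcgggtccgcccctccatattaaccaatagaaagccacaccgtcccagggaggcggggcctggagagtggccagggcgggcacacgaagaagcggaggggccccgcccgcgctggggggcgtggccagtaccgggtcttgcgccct

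These letters were searched on both strands for 6 motifs: TGGGAA (the RBPJ core), CACNAG (the N-box, bound by HES proteins), CACGTG (the E-box), TGANTCA (AP-1), GGAATG (TEAD) and the CArG box. The *Hey2* sequence held 1 RBPJ core on the minus strand, which overlapped a TEAD motif. No RBPJ core was in the 250 bases upstream of the RefSeq start of the other 6 genes in the table, against 21.6% of 32851 promoters of the same length that held at least 1. Those 6 genes were the receptors and the Jagged ligands. The target genes *Hes1*, *Hey1* and *Heyl* were not in the table, so their promoters were not searched. The *Notch1* sequence held 2 TEAD motifs and 1 N-box, and *Notch2* held 1 N-box. Over all promoters of the table, 36.7% held an N-box and 12.6% a TEAD motif. No motif of the set was in the *Jag1* stretch. Over the same 250 bases, the G and C content was 66% for *Notch1*, 72.0% for *Notch2*, 57.2% for *Jag1* and 71.6% for *Hey2*, against a median of 52.4% over all promoters.

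Of the 10 genes, 4 (*Notch1*, *Notch4*, *Jag1* and *Hey2*) had a promoter peak in all 6 lists, meaning a summit within 2 kb of the start of any annotated transcript. Over all protein-coding genes that share was 41.5%. All 3 BRG1 lists held a promoter peak for 6 of the 10, against 49.6% of all genes, and all 3 PBRM1 lists for 4, against 43.9%. *Jag2* was the 1 gene with no promoter peak in any list, which was the case for 34.9% of all genes. Thus the set as a whole stood near the background on the counts of full list support. Genes without any promoter peak were fewer, 1 of 10 beside 34.9%, and that difference was not tested. Of 60 possible values, 40 were present, resting on 10 to 44 fragments at the summit.

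**Figure D1:**
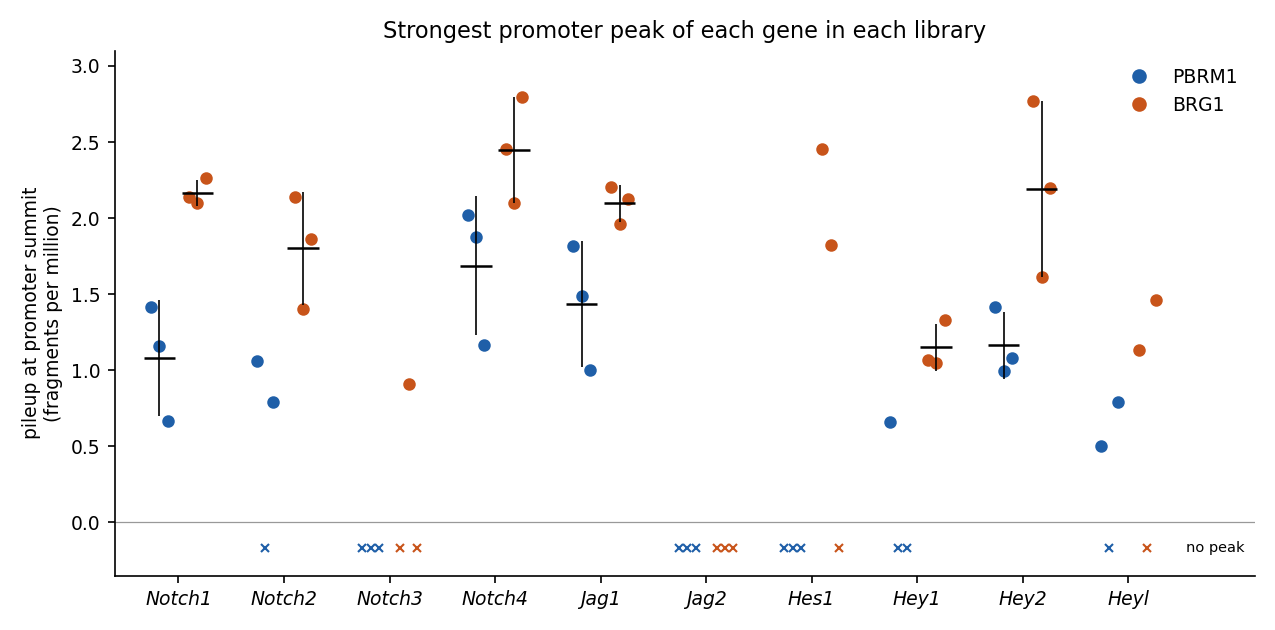
Per-million pileup at the summit of the strongest promoter peak (vertical axis) for the 10 genes in the 3 PBRM1 libraries (blue) and 3 BRG1 libraries (orange). Crosses mark libraries without a peak, and where all 3 libraries have one the bar is the mean with its SD. *Jag2* has crosses in all 6 libraries, and *Hes1* and *Notch3* have BRG1 values and no PBRM1 value.

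Among the receptors, *Notch1* (ENSMUSG00000026923.15, chr2:26457903-26516663, minus strand) had peaks at 2 coding starts that lie 12.8 kb apart. At the inner start, 26503822, the per-million pileup was 1.26 and 1.16 in PBRM1 replicates 1 and 2, and 2.14, 2.10 and 2.26 in the BRG1 replicates. PBRM1 replicate 3 had no peak there. At the outer start, 26516663, PBRM1 replicate 3 had 0.667, and the BRG1 replicates had 0.755, 0.910 and 0.865. BRG1 thus had a peak at both starts in every replicate, and its pileup was higher at the inner one in each. Its fold enrichment over local background was 3.32, 3.21 and 3.44 at the inner start and 3.23, 3.64 and 4.00 at the outer one. By that measure the outer start was the higher in BRG1 replicates 2 and 3.

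With the strongest promoter peak of each library, *Notch1* read 1.41, 1.16 and 0.667 for PBRM1 (1.08 ± 0.380, SD, n = 3) and 2.14, 2.10 and 2.26 for BRG1 (2.17 ± 0.0843, SD, n = 3). All 3 PBRM1 values lay below all 3 BRG1 values. The PBRM1 values came from different starts: replicate 1 from a peak 1.33 kb inside the inner start, replicate 2 from the inner start and replicate 3 from the outer one.

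*Notch2* (ENSMUSG00000027878.11, chr3:98013527-98150361, plus strand) had 1 promoter region, 863 bp wide, at its 5′ start. PBRM1 replicates 1 and 3 gave 1.06 and 0.792 and replicate 2 had no peak, whereas BRG1 gave 2.14, 1.40 and 1.86 (1.80 ± 0.373, SD, n = 3). The PBRM1 and BRG1 values did not overlap. Since 1 list lacked the peak, this gene was not tested.

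*Notch3* (ENSMUSG00000038146.8, chr17:32120820-32166852, minus strand), the receptor best known from mural cells of vessels, had little at its promoter. BRG1 replicate 2 alone held a peak there, with a per-million pileup of 0.910 at a summit 1.48 kb inside the gene. The lists called on the 3 replicates pooled held a *Notch3* promoter peak for each antibody, with a per-million pileup of 0.533 and a fold enrichment of 2.63 for PBRM1 and 0.597 and 2.18 for BRG1. Of 14764 genes with a promoter peak in the pooled BRG1 list, 0.17% had a fold enrichment as low as this at the promoter peak with the highest pileup. The pooled BRG1 list also held a *Notch3* promoter peak of lower pileup (0.332) and higher fold enrichment (3.09). It lay 1625 bp from another annotated start, 31.46 kb from the 5′ end.

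*Notch4* (ENSMUSG00000015468.14, chr17:34564268-34588503, plus strand), a receptor best known from endothelium, passed as a gene with 6 of 6 lists, but not through its coding start. Its peak at chr17:34586633-34587901 lay 23.2 kb from the 5′ end, over untranslated sequence at the 3′ end of the gene, where GENCODE annotates starts of short noncoding transcripts of *Notch4*. That peak read 2.02, 1.88 and 1.17 for PBRM1 and 2.45, 2.10 and 2.79 for BRG1. At the coding start, BRG1 replicate 2 alone had a peak (0.770). The next gene, *Gpsm3*, starts 1.905 kb beyond the end of that peak, so the annotation does not settle to which gene this region belongs.

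When starts of protein-coding transcripts alone were used, an alternative chosen after seeing the data, 3 of the 10 genes (*Notch1*, *Jag1* and *Hey2*) had a promoter peak in all 6 lists, against 40.1% of all genes. *Notch4* fell to 1 list and *Heyl* from 4 lists to 2. The other 8 genes had the same number of lists under both rules.

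Of the ligands, *Jag1* (ENSMUSG00000027276.7, chr2:137081456-137116644, minus strand) had a 650-bp region over its start in every list. Per-million pileups were 1.82, 1.49 and 1.00 for PBRM1 (1.44 ± 0.412, SD, n = 3) and 2.202, 1.96 and 2.13 for BRG1 (2.10 ± 0.124, SD, n = 3). The PBRM1 values lay below all BRG1 values, as for 73.3% of genes with a promoter peak in all 6 lists. The PBRM1 libraries spread more widely than the BRG1 libraries. *Jag2* (ENSMUSG00000002799.6, chr12:112907819-112929776, minus strand), the other Jagged ligand, had no promoter peak in the 6 replicate lists or in either pooled list.

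*Hey2* (ENSMUSG00000019789.9, chr10:30832359-30842801, minus strand), a transcriptional repressor of the HEY family, had the clearest promoter of the 4 target genes. Its 830-bp region at the start, over the printed sequence with the RBPJ core, gave 1.41, 0.993 and 1.08 for PBRM1 (1.16 ± 0.222, SD, n = 3) and 2.77, 1.61 and 2.19 for BRG1 (2.19 ± 0.579, SD, n = 3). The lowest BRG1 value lay above the highest PBRM1 value, as for 73.3% of genes with a promoter peak in all 6 lists. No other gene of the 10 had a higher pooled fold enrichment, at 5.85 for PBRM1 and 8.30 for BRG1.

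*Hey1* (ENSMUSG00000040289.8, chr3:8663359-8667256, minus strand), a second repressor of that family, had a promoter peak in all 3 BRG1 lists (1.07, 1.05 and 1.33) and in PBRM1 replicate 1 (0.657). The peaks fell in 4 small regions whose summits spanned 3.39 kb. One of them, chr3:8666728-8667133, was in all 3 BRG1 lists and no PBRM1 list, a pattern of 0.916% of the 82949 merged regions of the genome, and it was the 1 such region among the 58 near the 10 genes. The pooled lists held a peak there for both antibodies, with a per-million pileup of 0.581 for PBRM1 and 1.04 for BRG1.

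*Heyl* (ENSMUSG00000032744.4, chr4:123233556-123249875, plus strand), the third HEY gene, had a peak at its coding start in 2 lists, with 0.505 in PBRM1 replicate 1 and 1.07 in BRG1 replicate 1. A second region, 6.15 kb inside the gene at the start of a noncoding transcript, was in 3 lists, with 0.792 in PBRM1 replicate 3, 1.13 in BRG1 replicate 1 and 1.46 in BRG1 replicate 3. Neither region was in PBRM1 replicate 2 or BRG1 replicate 2.

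*Hes1* (ENSMUSG00000022528.8, chr16:30064384-30067796, plus strand), the repressor most often used as a readout of Notch activity, had a promoter peak in BRG1 replicates 1 and 2 (2.45 and 1.82) and in no PBRM1 list. These were 2 separate peaks 0.707 kb apart, each in 1 list. Their pileups were among the higher of the 10 genes, although the gene had few calls. The pooled lists held a *Hes1* promoter peak for PBRM1 (1.21 per-million pileup) and BRG1 (2.06).

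The local background differed among the genes. The caller's fold enrichment is close to the pileup divided by the background within 10 kb of the same library. The ratio of the 2 columns thus gives an approximate figure for that background. With no control library, this background includes nearby signal of the same antibody. At the *Hes1* promoter the ratio was 27.6 fragments for pooled PBRM1 and 28.0 for pooled BRG1, against medians of 12.9 and 11.7 over all genes with a pooled promoter peak. That placed *Hes1* at percentile 98.4 for each antibody. *Notch1* was at percentile 92.1 for PBRM1 and 98.4 for BRG1, *Jag1* at 90.3 and 92.1 and *Notch4* at 84.0 and 94.1, whereas *Hey2* was at 44.0 and 43.2. Of these, *Notch1*, *Jag1*, *Notch4* and *Hey2* had a promoter peak in all 6 lists. Likewise the pooled BRG1 fold enrichment of *Hes1* was 3.32 (percentile 9.72) with a pileup at percentile 74.4, and that of *Hey2* was 8.30 (percentile 88.4) with a pileup at percentile 72.3. *Hes1* and *Hey2* thus had like BRG1 pileups and different fold enrichments.

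**Figure D2:**
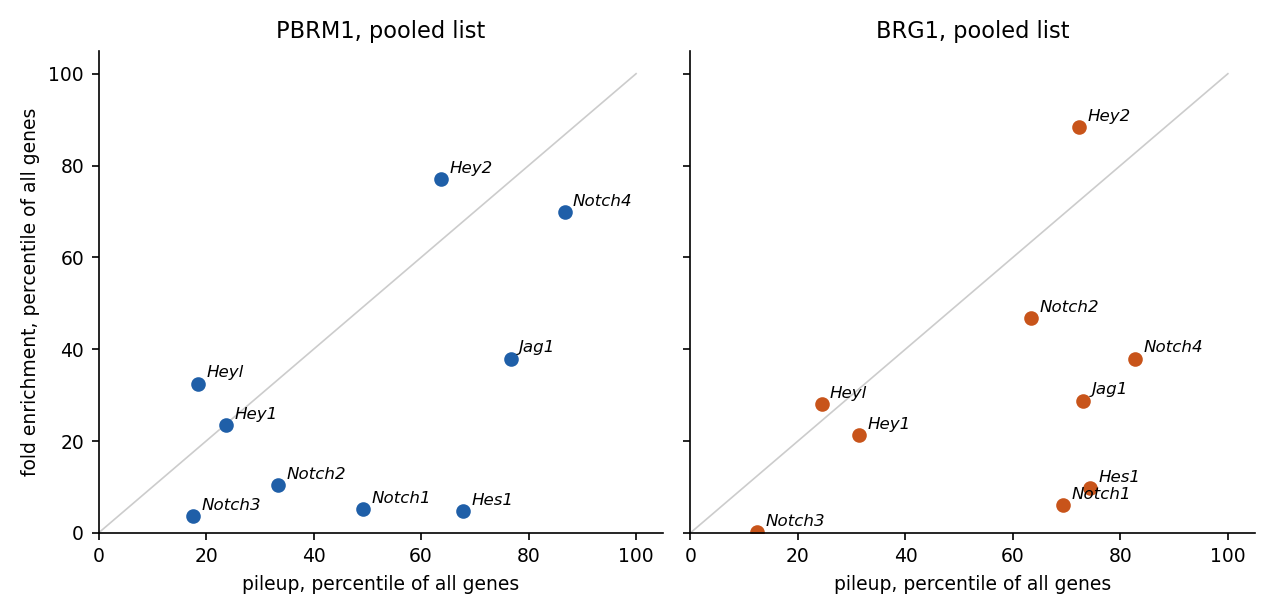
Percentile of the promoter pileup (horizontal axis) and of the fold enrichment over local background (vertical axis) among all genes with a promoter peak in the pooled list, for PBRM1 (left) and BRG1 (right). *Hes1* and *Notch1* lie low in fold enrichment beside their pileup, *Hey2* lies above the diagonal of equal ranks, and *Jag2* has no point.

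To ask whether PBRM1 and BRG1 signal differed at these promoters, the log2 per-million pileup was fitted with limma over the 9102 genes with a promoter peak in all 6 lists, with Benjamini-Hochberg adjustment over all of them. Genes that lacked a peak in any list could not enter. Over all genes the PBRM1 value was lower, with a median log2 difference of -0.59. The test called 6839 genes lower in PBRM1, or 75.1%, and 16 genes higher, or 0.176%. All 3 PBRM1 values lay below all 3 BRG1 values for 73.3% of genes. Each PBRM1 library was deeper than each BRG1 library, and the antibodies differ. In this fit and the distal fit below, a difference in binding therefore cannot be told apart from depth or antibody.

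All 4 members in the fit were called lower in PBRM1, beside that 75.1%. The log2 difference was -1.07 for *Notch1* (SE 0.21, adjusted p = 0.000103) and -0.89 for *Hey2* (SE 0.20, adjusted p = 0.000402). It was -0.59 for *Jag1* (SE 0.20, adjusted p = 0.00907) and -0.57 for *Notch4* (SE 0.19, adjusted p = 0.00951). *Jag1* and *Notch4* therefore stood 0.0076 and 0.027 above the median gene, and *Hey2* and *Notch1* stood 0.30 and 0.48 below it on the log2 scale. The *Notch1* difference does not compare the antibodies at a single site, since all BRG1 values came from the inner start. PBRM1 replicate 3 (0.667) came from the outer start, where BRG1 read 0.755 to 0.910, and PBRM1 replicate 1 from a peak inside the inner start. Without PBRM1 replicate 3, *Notch1* stood 0.25 below the median gene of that fit (-0.76 beside -0.51). Without BRG1 replicate 1, *Hey2* stood 0.12 below it (-0.71 beside -0.59).

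That general shift depended on the scaling. Division of each library by its own median over these promoters removes, by construction, any shift shared by most genes. The median gene then read 0.022, so the loss of the shift on that scale is not a separate result. After this division, limma called 99 genes in either direction, or 1.09%, of which 32 were lower and 67 higher in PBRM1. It called none of the 4 members, of which *Notch1* had an unadjusted p = 0.0211. The differences were then -0.46 for *Notch1* (adjusted p = 0.247), -0.28 for *Hey2* (adjusted p = 0.514), 0.030 for *Jag1* (adjusted p = 0.971) and 0.049 for *Notch4* (adjusted p = 0.938). With fold enrichment in place of pileup, 15.9% of genes were called lower in PBRM1, and *Hey2* was the 1 member called (-0.58, SE 0.17, adjusted p = 0.0259). On that scale *Notch1* read 0.076 (adjusted p = 0.768), and PBRM1 was not the lower.

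PBRM1 replicate 3, the most deeply sequenced library, gave the lowest value at *Notch1*, *Notch4* and *Jag1*. Without it, *Jag1* (-0.35, adjusted p = 0.0989) and *Notch4* (-0.32, adjusted p = 0.115) were no longer called, and *Notch4* was also lost without BRG1 replicate 3 (-0.47, adjusted p = 0.0607). Without PBRM1 replicate 2, *Notch2* entered the fit and was called lower in PBRM1 (-0.95, adjusted p = 0.000661).

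**Figure D3:**
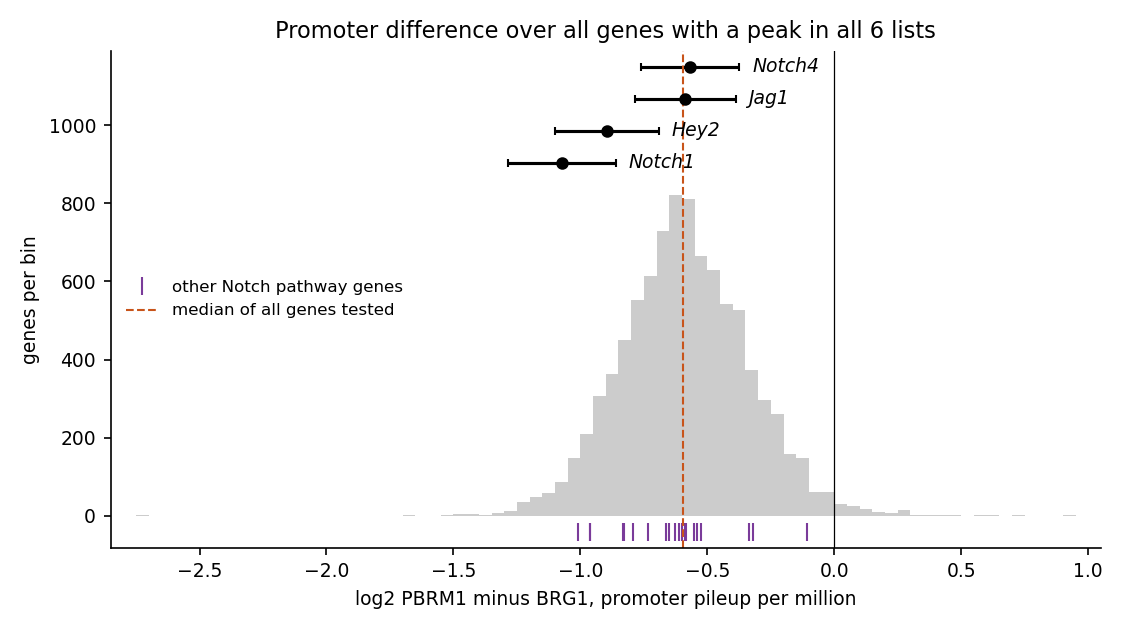
Log2 difference of the per-million promoter pileup, PBRM1 minus BRG1 (horizontal axis), as a histogram over 9102 genes (bins of 0.05), with the 4 members in the fit as points with their SE and 20 other Notch pathway genes as ticks. The dashed line is the median of all genes at -0.59, and *Jag1* and *Notch4* sit on it while *Hey2* and *Notch1* lie to its left.

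Peaks away from promoters were sought in the same windows. The 6 lists merged into 58 regions near the 10 genes: 19 at a start of the gene itself, 10 at a start of another gene and 29 distal, with no summit within 2 kb of any start. A single list held 27 of the 58, against 47.0% of all merged regions. Distal regions were most numerous at *Notch2* (10), whose window was the longest at 176.8 kb, and followed at *Notch1* and *Notch3* (5 each). *Hey1*, *Hey2* and *Heyl* had none within 20 kb. Of the 29 distal regions, 3 were in all 6 lists, against 7.75% of 57367 distal regions genome-wide. Of the 10 at starts of other genes, 2 were in all 6 lists. One lay past the 3′ end of *Notch1*, near starts of *0610009E02Rik* and *Sec16a*, and 1 past the 3′ end of *Notch4*, near starts of *Agpat1* and *Rnf5*. Both read higher for BRG1 than for PBRM1 in every pair of libraries, as did 73.3% of the 9102 gene promoters in the fit.

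**Figure D4:**
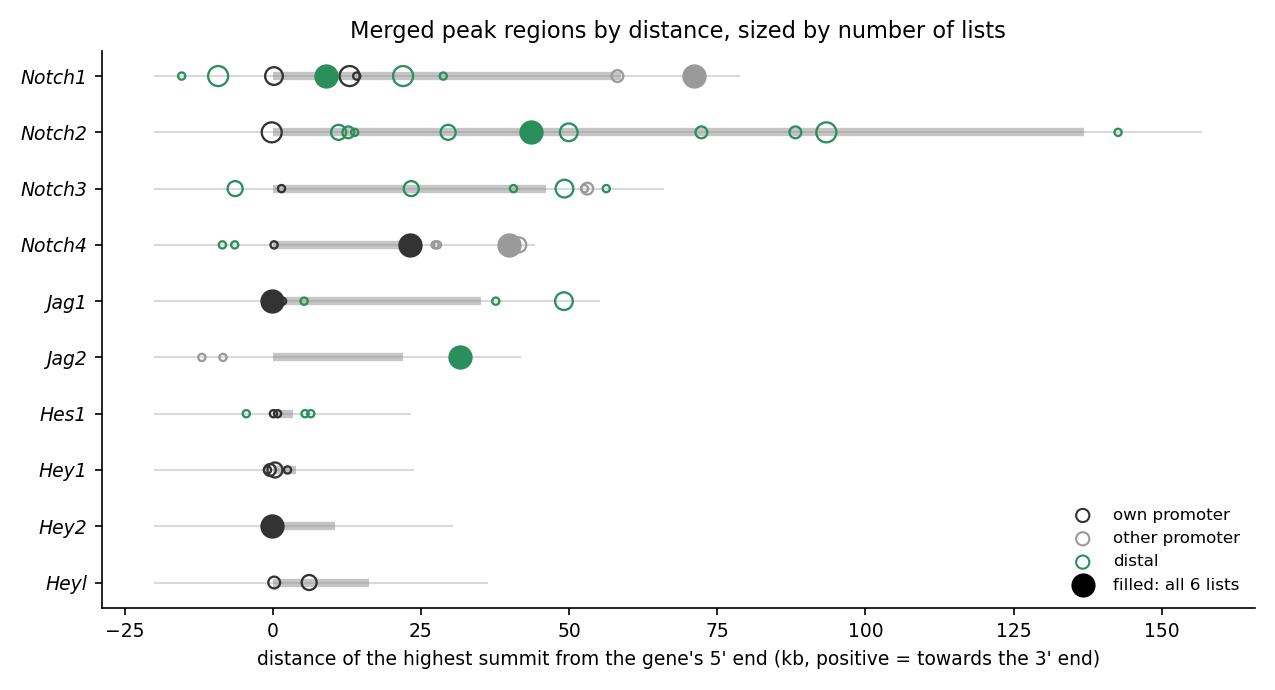
Merged peak regions of the 10 genes by the distance of their highest summit from the 5′ end of the gene (kb, horizontal axis), with the gene body as a thick bar and circle size rising with the number of lists from 1 to 6. Filled circles are regions in all 6 lists: 3 at own promoters (black), 2 at promoters of other genes (gray) and 3 distal (green), the last at *Notch1*, *Notch2* and *Jag2*.

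These 3 distal regions lay in introns of *Notch1* and *Notch2* and downstream of *Jag2*. Their 201 bases around the summit are shown since they carry signal of both antibodies in every library, each on the strand of its gene. They are chr2:26507516-26507716 on the minus strand, chr3:98056963-98057163 on the plus strand and chr12:112898021-112898221 on the minus strand, read from GRCm38.
Notch1 distal: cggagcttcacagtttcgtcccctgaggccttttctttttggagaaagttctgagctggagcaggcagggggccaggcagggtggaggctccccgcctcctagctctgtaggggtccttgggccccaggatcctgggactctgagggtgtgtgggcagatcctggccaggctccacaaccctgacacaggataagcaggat
Notch2 distal: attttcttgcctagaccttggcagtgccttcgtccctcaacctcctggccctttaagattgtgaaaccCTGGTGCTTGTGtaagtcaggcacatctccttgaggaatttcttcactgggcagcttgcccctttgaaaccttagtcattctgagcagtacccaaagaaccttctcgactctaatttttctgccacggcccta
Jag2 distal: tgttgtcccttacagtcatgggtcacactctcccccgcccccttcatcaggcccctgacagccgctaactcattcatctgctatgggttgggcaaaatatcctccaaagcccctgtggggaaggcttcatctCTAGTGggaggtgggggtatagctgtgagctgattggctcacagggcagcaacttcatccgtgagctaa

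The *Notch2* sequence held 2 N-boxes and the *Jag2* sequence 1, and the *Notch1* sequence held none of the 6 motifs. Over the 4448 distal regions in all 6 lists, windows of 201 bases held an N-box in 36.9%, an RBPJ core in 22.8%, an AP-1 motif in 18.7% and a TEAD motif in 16.5%. None of the 3 windows matched an RBPJ core, AP-1, TEAD, E-box or CArG box motif.

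The *Notch1* region (chr2:26507472-26507975) lay 9.05 kb from the outer start and 3.79 kb upstream of the inner one. PBRM1 pileups there were 1.16, 1.60 and 1.46 (1.41 ± 0.223, SD, n = 3), and BRG1 pileups were 1.89, 1.96 and 2.06 (1.97 ± 0.0878, SD, n = 3). PBRM1 replicate 3, without a peak at the inner start, thus had a pileup between those of the other 2 PBRM1 libraries here. The *Jag2* region (chr12:112897524-112898249), 31.7 kb from the 5′ end and 9.57 kb past the 3′ end of the gene, gave 0.859, 0.993 and 0.834 for PBRM1 (0.895 ± 0.0857, SD, n = 3). BRG1 gave 1.26, 1.47 and 1.26 there (1.33 ± 0.121, SD, n = 3). So the gene without a promoter peak had a distal region in every list, although nothing in these data ties that region to *Jag2*.

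The *Notch2* region (chr3:98056630-98057325) lay 43.5 kb inside the gene. PBRM1 gave 1.16, 1.16 and 1.13 (1.15 ± 0.0203, SD, n = 3) and BRG1 gave 1.07, 1.26 and 1.13 (1.15 ± 0.0974, SD, n = 3), with the groups overlapping. At the *Notch2* promoter, in contrast, both PBRM1 values lay below all BRG1 values. The difference between these 2 sites was not tested.

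Over the 4448 distal regions with a peak in all 6 lists, limma called 660, or 14.8%, with a median log2 difference of -0.27. None of the 3 was called: *Jag2* -0.57 (SE 0.22, unadjusted p = 0.00919, adjusted p = 0.0572 by limma), *Notch1* -0.50 (SE 0.19, unadjusted p = 0.00980, adjusted p = 0.0594 by limma) and *Notch2* -0.0027 (SE 0.21, adjusted p = 0.997 by limma). At *Jag2* and *Notch1* all 3 PBRM1 values lay below all 3 BRG1 values, as they did for 30.9% of these distal regions.

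Another 3 distal regions were in 5 lists. In *Notch1*, an intron 22.0 kb from the outer start had a peak in all lists except BRG1 replicate 1, with 1.31, 1.32 and 1.00 for PBRM1 and 2.10 and 2.19 for BRG1. A region 9.21 kb upstream of *Notch1* lacked a peak in PBRM1 replicate 3 alone (1.06 and 0.993 for PBRM1, 1.82, 1.33 and 1.66 for BRG1). In *Notch2*, an intron 93.4 kb from the start had 1.36, 0.993 and 1.00 for PBRM1 and 0.881 and 0.840 for BRG1, and there PBRM1 was the higher in these libraries. At *Notch3*, no region was in more than 4 lists; the best supported, 49.2 kb from the 5′ end and past the 3′ end of the gene, was in 3 PBRM1 lists (0.909, 0.662 and 0.792) and 1 BRG1 list (1.19).

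The remaining steps of the pathway were read from a list of 35 other genes. A promoter peak was in all 6 lists for 20 of the 35 (57.1%) and in no list for 5, set beside 41.5% and 34.9% of all protein-coding genes. By role, all 6 protease genes of the list (ADAM and γ-secretase subunits) and both corepressor genes were in all 6 lists, as were 6 of 9 modulators. Among nuclear effectors, *Rbpj* and *Maml1* were in all 6 lists, *Snw1* in 5, and *Maml2* and *Maml3* in 4. Glycosyltransferases, which add and extend sugars on the receptors, had 2 of 4 (*Pofut1* and *Lfng*).

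*Dll1* was 1 of 4 other ligand genes in all 6 lists, and *Hes6* was 1 of 5 other HES genes. The 5 genes with no promoter peak in any replicate list were *Dll4*, *Dlk1*, *Hes2*, *Hes3* and *Hes5*. Of these, *Dll4* had a pooled peak for both antibodies, *Hes3* for PBRM1 alone and *Hes5* for BRG1 alone. *Mfng* had a peak in 2 PBRM1 lists and no BRG1 list, and *Maml3* in 3 PBRM1 lists and 1 BRG1 list.

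**Figure D5:**
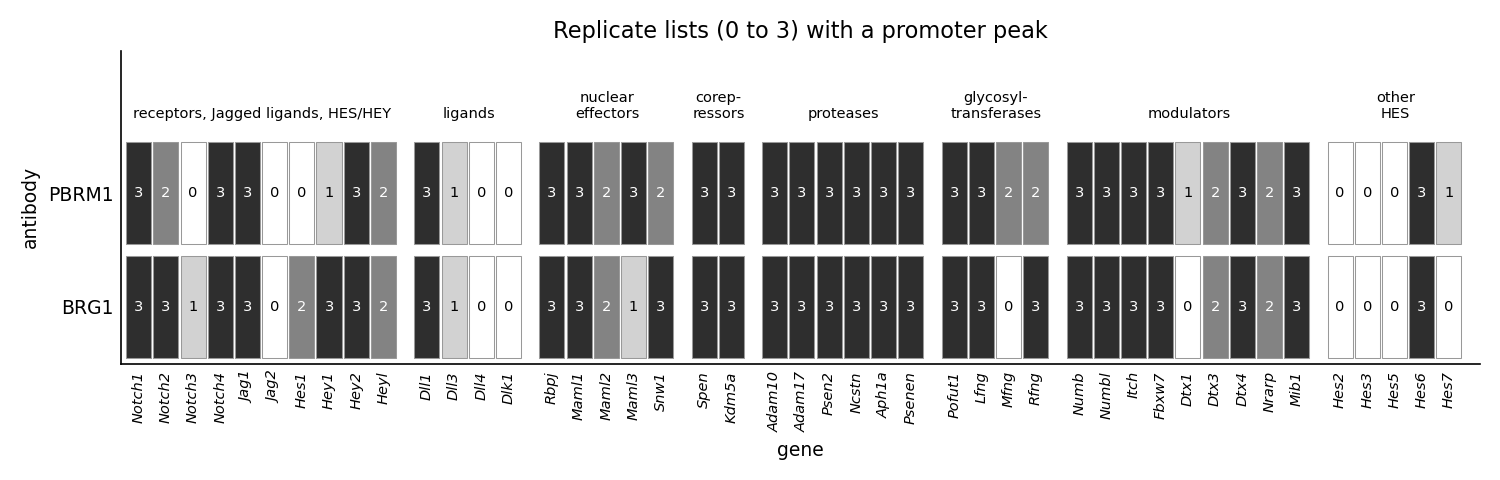
Number of replicate lists (0 to 3, shade and digit) with a promoter peak for PBRM1 (top row) and BRG1 (bottom row) in the 10 genes and 35 other Notch pathway genes grouped by role. The 6 protease and 2 corepressor genes read 3 in both rows, while *Jag2*, *Dll4*, *Dlk1*, *Hes2*, *Hes3* and *Hes5* read 0 in both.

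In the promoter fit, 17 of these 20 genes were called lower in PBRM1 and 0 higher by limma (0 higher at an unadjusted p under 0.05), beside 75.1% of all genes called lower, and their median log2 difference was -0.62 beside -0.59. The differences ran from -1.01 for *Pofut1* (SE 0.21, adjusted p = 0.000146), which adds the first sugar to Notch receptors, to -0.11 for *Aph1a* (SE 0.19, adjusted p = 0.589), a γ-secretase subunit. *Adam10*, the protease of ligand-induced cleavage, read -0.96 and the corepressor gene *Spen* read -0.96 as well. *Rbpj* read -0.79 (SE 0.20, adjusted p = 0.000822). Called genes also included *Numbl* (-0.83), *Psen2* (-0.83), *Adam17* (-0.73), *Numb* (-0.66), *Dtx4* (-0.65), *Hes6* (-0.63), *Psenen* (-0.61) and *Itch* (-0.60). The remaining called genes were *Fbxw7* (-0.59), *Dll1* (-0.58), *Lfng* (-0.55), *Kdm5a* (-0.54) and *Mib1* (-0.52). *Aph1a*, *Ncstn* (-0.32) and *Maml1* (-0.34) were not called. After division by library medians, limma called 0 of the 20, with 4 at an unadjusted p under 0.05, of which 3 were lower in PBRM1 and 1 (*Aph1a*, 0.51, SE 0.17) was higher. On that scale, which sets the median gene near 0 by construction, 10 of the 20 differences were above 0.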

How the data were processed

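ChIC-Seq of PBRM1 and BRG1 (3 libraries each) was analysed from 8 peak lists, 6 of single libraries and 2 called on pooled replicates. Per the labels, the authors used cutadapt, Bowtie2 and MACS2 on GRCm38.p5; filters on reads were not given in the sources used here. Narrow peaks were called by the authors from paired-end fragments (MACS 2.2.7.1 per the file headers) at a q cutoff of 0.05, without a control file and with a local background of 10 kb. The deposited pileup is unscaled signal, the coverage at the summit. Fold enrichment was deposited as a ratio to that background, the q-values are deposited as −log10 q, and peak positions are as deposited.

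Pileups were divided by the header's fragment total and multiplied by 1000000. Peaks of the 6 lists sharing at least 1 bp were merged. A promoter peak had its summit within 2 kb of a transcript start (GENCODE M21), and the strongest per list was used. Tests were two-sided limma 3.58.1 (R 4.3.3) with a variance trend on log2 values, fitted on all features with a peak in all 6 lists, threshold 0.05. They were tried on simulated data in which few features were changed and there was no general shift. There, large changes were recovered only in part and small ones mostly not. In the promoter fit most genes were called, so that recovery does not describe it. A difference that was not called can still be present. Alternatives were library median scaling, fold enrichment, −log10 q of at least 5, promoters within 1 kb, peak edges instead of summits, protein-coding starts, summit linkage within 200 bp, windows of 10 or 50 kb, no variance trend, a replicate block, and each library left out. Pooled lists hold the same fragments as the replicates and were not tested. Members, gene lists and motifs were chosen with earlier results of these data known. All 10 members are named; distal regions are named where in all 6 lists, in all 3 lists of one antibody and none of the other, or, chosen after their values were seen, where in 5 lists or best supported at *Notch3*; pathway genes are named where called, where no list had a promoter peak, or, likewise chosen afterwards, as examples. A few genes of the pathway list are not reported here. Sequences were read with pysam 0.24.0 from GRCm38.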

Additional observations from a re-analysis of the deposited data

How the results depend on the processing

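Counts over all genes depended most on scaling. Promoters called in the fit of PBRM1 against BRG1 numbered 6855 of 9102 as reported, 1467 with fold enrichment and 99 with median scaling, and 5501 to 6932 with 1 library left out. Distal regions called numbered 660 of 4448 as reported, 185 with fold enrichment, 160 with median scaling, 376 of 1299 with −log10 q of at least 5, and 323 to 589 with 1 library left out. Of the members, 4 were called as reported, 1 with fold enrichment, 0 with median scaling, 2 with the stricter q, and 2 to 5 with 1 library left out. Member promoters in all 6 lists were 4 as reported, 2 with the stricter q (*Notch4* and *Hey2*) and 4 to 5 with 1 library left out. Distal regions in every list were 3 as reported, 6 with a 50 kb window, 0 with the stricter q and 3 to 4 with 1 library left out. Median scaling sets the median gene near 0, so genes close to that median can change sign by construction. Signs turned for *Jag1* (0.030) and *Notch4* (0.049) promoters with median scaling and for *Notch1* (0.076) and *Notch4* (0.093) promoters with fold enrichment. At distal regions they turned for *Notch1* (0.084) and *Notch2* (0.19) with fold enrichment, and for *Notch2* with median scaling (0.25), without BRG1 replicate 2 (0.063) and without PBRM1 replicate 3 (0.012); over the 6 libraries left out in turn, *Notch2* ranged from -0.056 to 0.063. None of these turned values was called, and apart from the scaling itself the cause was not tested. With the replicate block, 6646 promoters and 667 distal regions were called and the members' calls did not change. Correlations of same-numbered PBRM1 and BRG1 libraries, as deviations from the mean of their group, were -0.012, 0.025 and -0.010. With so few fragments per summit, these values cannot show whether same-numbered libraries were paired. At 10 to 44 fragments per summit and 3 libraries per antibody, a missing peak means that none was detectable at this depth.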
